A study of Homo sapiens with 4 samples.

Results

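Runs of consecutive windows were examined in the 5hmC-Seq table of FaDu cells. The table divides the genome into windows of 500 bp and lists a part of them. Its name gives a minimum for the read counts, and what this minimum was applied to was not tested. A run was defined by the listed positions alone, as 10 or more listed windows on chromosomes 1 to 22 in which each window started 500 bp after the one before. Of 956365 listed windows, 944052 were on these chromosomes and 182572 of them fell into 9903 runs. The windows in runs were thus 19.1% of the table and 19.3% of its autosomal windows, and they covered 91.3 Mb. The other 761480 autosomal windows were in shorter stretches or stood alone. Because the members were chosen by being listed side by side, the length of the runs describes the choice and was not tested.

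FaDu is a human epithelial line that was derived from squamous cell carcinoma of the lower pharynx (hypopharynx). There were 4 conditions with 1 library each: normoxia with a scrambled control, normoxia with TET1-si (knockdown of TET1, for which the methods of the study describe lentiviral short hairpin RNA), hypoxia with a scrambled control (1% oxygen for 18 h) and hypoxia with TET1-si (1% oxygen for 19 h). The study asked how the loss of TET1 and low oxygen change 5hmC at genes. The table is one list for the whole series, so that a listed window does not show in which condition it had reads, and the values and depth of the single libraries were not analysed here. The titles name the assay hMeDIP-seq, the labels describe precipitation with an antibody to 5-methylcytidine and the methods of the study describe chemical labeling of 5hmC, so that the mark that enriched these windows is not settled by these sources.

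5-hydroxymethylcytosine (5hmC) is the oxidized form of 5-methylcytosine. TET1, TET2 and TET3 make it, mostly at cytosines of CpG sites, where the DNA methyltransferases placed the methyl group. In mammalian genomes 5hmC is found in gene bodies and enhancers and is scarce at CpG islands, the CpG-dense stretches at many gene starts, while most 5-methylcytosine lies in the CpG-poor rest of the genome.

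Sequences of 300 bp from the middle window of 5 runs give examples of the DNA that the runs held. They were read from the plus strand of GRCh37, with every CG in capitals. They come from the longest run, the run of the second rank with CCND1 (added after its values were seen), the runs with the highest and the lowest mean number of CpG sites per window, and the first of 11 runs whose mean equaled the median over runs.
Longest run, SHANK2 (chr11:70317601-70317900): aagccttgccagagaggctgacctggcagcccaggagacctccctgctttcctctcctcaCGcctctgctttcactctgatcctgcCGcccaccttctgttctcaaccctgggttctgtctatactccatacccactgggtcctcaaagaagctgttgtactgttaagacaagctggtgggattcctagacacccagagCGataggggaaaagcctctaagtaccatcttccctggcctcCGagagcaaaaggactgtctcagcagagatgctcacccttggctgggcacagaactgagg
CCND1 run, between genes (chr11:69499601-69499900): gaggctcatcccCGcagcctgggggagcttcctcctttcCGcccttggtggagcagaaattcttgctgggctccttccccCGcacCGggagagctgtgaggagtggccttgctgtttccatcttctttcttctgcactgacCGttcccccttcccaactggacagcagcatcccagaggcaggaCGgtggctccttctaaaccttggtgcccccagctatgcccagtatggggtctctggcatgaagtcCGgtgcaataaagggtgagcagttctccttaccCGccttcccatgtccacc
Highest CpG, FOXD3 run (chr1:63787601-63787900): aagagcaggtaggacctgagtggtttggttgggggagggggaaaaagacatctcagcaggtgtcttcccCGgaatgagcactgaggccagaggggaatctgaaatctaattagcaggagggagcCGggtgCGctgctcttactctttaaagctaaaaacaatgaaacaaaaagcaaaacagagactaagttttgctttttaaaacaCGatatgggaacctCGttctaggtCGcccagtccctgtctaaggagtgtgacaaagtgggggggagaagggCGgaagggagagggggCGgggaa
Lowest CpG, no gene (chr19:27841601-27841900): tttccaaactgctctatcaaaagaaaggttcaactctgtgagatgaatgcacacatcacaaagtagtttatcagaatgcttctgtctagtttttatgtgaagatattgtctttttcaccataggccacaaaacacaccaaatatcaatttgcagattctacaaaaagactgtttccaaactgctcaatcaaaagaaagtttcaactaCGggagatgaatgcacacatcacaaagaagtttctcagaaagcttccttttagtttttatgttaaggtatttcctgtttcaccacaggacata
Median CpG, no gene (chr1:234796601-234796900): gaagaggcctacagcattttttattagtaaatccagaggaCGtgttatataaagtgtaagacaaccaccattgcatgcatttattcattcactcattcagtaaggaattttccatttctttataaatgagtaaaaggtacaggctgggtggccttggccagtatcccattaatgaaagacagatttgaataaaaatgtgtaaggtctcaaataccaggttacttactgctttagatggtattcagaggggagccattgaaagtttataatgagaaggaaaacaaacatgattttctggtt
The FOXD3 run (chr1:63785001-63790500) had 11 windows with a mean of 41.7 CpG sites and a GC content of 62.2%. FOXD3 is a forkhead factor of the neural crest, and its start lay inside the run. The run with the lowest mean (chr19:27839001-27844000) had 10 windows with a mean of 1.6 CpG sites and a GC content of 35.0%. Its 5000 bases repeated themselves. When the sequence was shifted by 171 bases, 53.1% of its bases matched, against a mean of 27.5% over all shifts of 50 to 400 bases. The whole windows around the SHANK2, CCND1 and median sequences had 13, 13 and 4 CpG sites, and their runs had means of 9.54, 10.1 and 9.67. Those around the FOXD3 and lowest sequences had 22 and 3. The printed FOXD3 and CCND1 sequences had 8 CpG sites each, and the median and lowest sequences 1 each. The headings thus describe the runs and not the printed bases.

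Most runs were short. The median run had 14 windows (7 kb) and the mean run 18.4 windows (9.22 kb), and 90% of the runs had at most 30 windows (15 kb). Runs of 10 to 19 windows made up 7574 of the 9903 runs (76.5%). There were 323 runs of 50 or more windows and 60 of 100 or more, and these 60 held 11510 windows (6.30% of all windows in runs). Stretches of any length numbered 366326, of which 154307 were single windows. Just outside the limit were 2373 stretches of 9 windows with a mean of 9.92 CpG sites per window, and just inside it 1740 runs of 10 windows with a mean of 10.1.

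**Figure D1:**
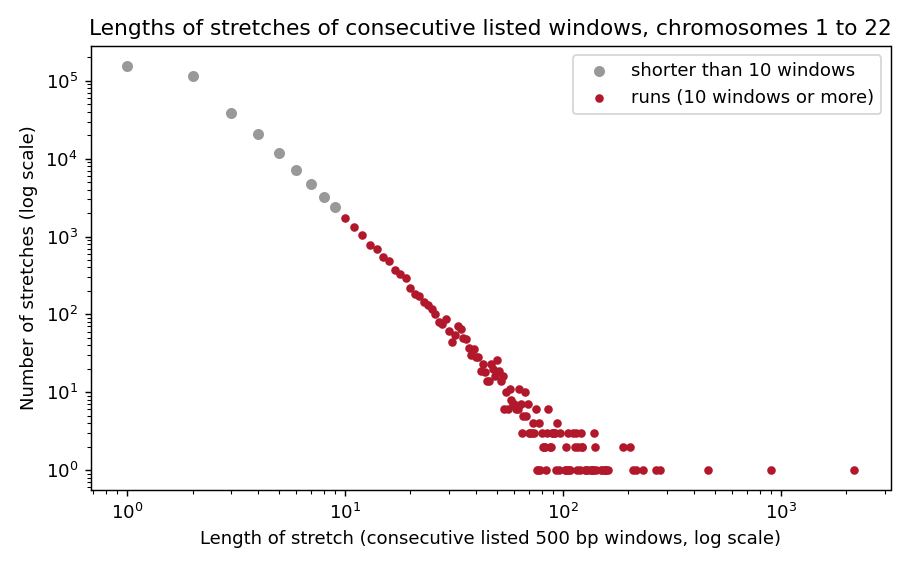
Number of stretches (y axis, log scale) against their length in consecutive listed windows of 500 bp (x axis, log scale) on chromosomes 1 to 22. Grey points are stretches under 10 windows and red points are runs. The numbers fall steadily with length through the limit of 10 windows, and 3 runs of 464, 902 and 2173 windows stand to the right of all others.

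The 3 longest runs lay side by side at 11q13. The longest (chr11:69774501-70861000) had 2173 windows (1086.5 kb). The second (chr11:69274001-69725000) had 902 windows (451 kb) and the third (chr11:70861501-71093500) 464 windows (232 kb). The fourth longest run in the genome had 280 windows. From the first base of the second run to the last base of the third there were 3639 windows, of which 3539 were listed and 100 were not. Of these 100 windows, 99 lie in a block of undetermined bases (chr11:69725001-69774500) where no read can be placed. The only determined window that was absent (chr11:70861001-70861500) had 0 CpG sites and a GC content of 64.2%. The 3 runs held 24.6% of all windows in runs of chromosome 11.

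These runs covered 10 protein-coding genes and the starts of all 10. The CCND1 run held CCND1 (cyclin D1, which drives cells from G1 into S phase), LTO1 and the growth factor genes FGF19, FGF4 and FGF3, each from end to end. The longest run held ANO1 (a calcium-activated chloride channel), FADD (the adaptor of death receptors), PPFIA1 (the scaffold liprin-alpha-1) and CTTN (cortactin, which binds actin), also from end to end. It passed into SHANK2, a scaffold of synapses, which went on into the third run. CCND1 had 26 of 26 windows in runs, FADD 8 of 8, CTTN 76 of 76, PPFIA1 229 of 229, ANO1 407 of 407 and SHANK2 1298 of 1299. Each of the 10 promoters, taken as the 3000 bp upstream of the canonical start, had 6 of 6 windows in runs. The windows with the starts had 34 CpG sites for ANO1, 39 for CCND1, 63 for CTTN, 69 for SHANK2 and 74 for PPFIA1, and all of them were listed. Over all protein-coding genes, 5.98% of the windows with a start were in runs. The 10 genes were named because these runs overlapped them, so that their starts were not tested against this share.

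The windows of the 3 runs had a mean of 9.47 CpG sites, against 10.9 in the other runs and 4.86 in the remaining windows of chromosome 11. Of their windows 7.89% had 0 to 2 CpG sites, against 4.84% in the other runs and 37.8% in the rest of chromosome 11. Among the listed windows of the stretch 46 had 0 CpG sites and 36 had 40 or more, and GC content went from 24.6% to 80%.

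The borders of the stretch differed. In the 100 kb before it 97.5% of windows were listed, and in the 1 Mb before it 84.75%. In the 100 kb after it 61.5% were listed and in the 1 Mb after it 37.65%, against 16.6% in the rest of chromosome 11. The 1 Mb before the stretch includes an undetermined block of 99 windows (chr11:69090001-69139500), which 84.75% counts as not listed. The share for the rest of chromosome 11 was taken over determined windows only. The side before the stretch carried further long runs, of 188 windows (chr11:69178501-69272500) that began at the end of MYEOV and lay mostly behind it, of 188 windows (chr11:68836501-68930500) that overlapped TPCN2 and SMIM38, and of 158 windows (chr11:68757001-68836000) that overlapped MRGPRF and TPCN2. MYEOV is split by the same undetermined block, and 140 of its 141 determined windows were in runs. TPCN2, an ion channel of lysosomes, had 174 of 175 windows in runs. The 11q13 region with CCND1 is often gained in copy number in squamous cell carcinomas of the head and neck. No copy number and no input library were analysed here, and the part of copy number in these runs was not tested.

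Outside 11q13 the longest runs lay in single large genes or in groups of small ones. The run of 280 windows (chr14:93385001-93525000) held the whole of CHGA (chromogranin A of secretory granules) and most of ITPK1, an inositol phosphate kinase with 354 of 358 windows in runs. The run of 267 windows (chr22:46799001-46932500) lay inside CELSR1, a cadherin of planar cell polarity, which had 351 of 354 windows in runs. The run of 233 windows (chr9:137219501-137336000) held most of RXRA, the retinoid X receptor alpha, with 243 of 247 windows in runs. The run of 216 windows (chr17:80784501-80892500) lay in TBCD, a cofactor of tubulin folding, and held the whole of ZNF750, a transcription factor of epidermal differentiation. A run of 203 windows (chr22:46270001-46371500) overlapped WNT7B, the gene of a secreted WNT ligand with 111 of 114 windows in runs, and reached beyond its 3′ end. Another of 203 windows (chr22:43481001-43582500) held BIK (a BCL2 family protein that promotes apoptosis), MCAT and TSPO from end to end, with parts of TTLL1 and TTLL12. The run of 211 windows (chr22:47028001-47133500) spanned parts of GRAMD4 and of CERK, the ceramide kinase. The remaining runs among the 15 longest had 161 windows in BAIAP2 and AATK (chr17:79028001-79108500) and 157 windows that overlapped SCUBE1 (chr22:43591001-43669500).

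The share of listed windows that fell into runs differed widely between chromosomes. It was 51.8% on chromosome 22, 37.2% on 21, 33.7% on 14, 32.6% on 16, 31.0% on 11 and 29.7% on 17. The lowest shares were 4.30% on chromosome 18, 5.69% on 4, 6.47% on 2, 6.70% on 6 and 7.93% on 3. Chromosome 22 had 587 runs, 18 of them with 100 or more windows, and 22.4% of its determined windows were in runs. Chromosome 18, which is larger, had 42 runs and 0.379%. Chromosome 14 had the most runs (904) and 18340 windows in runs, 10.0% of all.

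The number of CpG sites did not order the chromosomes in the same way. Chromosome 14 had a mean of 4.87 CpG sites per window over its whole length, near the 4.98 of all chromosomes, and 10.4% of its windows were in runs. Chromosome 19 had the highest mean, 9.47, and 7.83% of its windows were in runs. Among windows with 6 to 10 CpG sites, 26.6% were in runs on chromosome 22, 20.5% on 14, 6.55% on 19, 0.753% on 18 and 0.720% on 4, against 6.13% over all autosomes. Chromosomes thus also differed within this class of CpG number. Membership in a run depends on the neighboring windows too, whose CpG number was not matched. The causes of the differences between chromosomes were not tested.

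Runs were gathered in few regions and toward the ends of chromosomes. Of 273 regions of 10 Mb, 37 had no run window, 146 had under 1% of their windows in runs and 20 had over 10%. The 5 highest regions held 23.1% of all windows in runs with 1.85% of the determined windows. They were 40 to 50 Mb of chromosome 22 (51.2% of windows in runs), 90 to 100 Mb of chromosome 14 (42.9%), 60 to 70 Mb of chromosome 11 (42.0%), 130 to 140 Mb of chromosome 9 (41.8%) and 70 to 80 Mb of chromosome 17 (34.5%). The region of chromosome 14 had a mean of 5.92 CpG sites per window and that of chromosome 9 a mean of 11.2. Within 5 Mb of a chromosome end lay 29.7% of the windows in runs, 10.9% of the listed windows outside runs and 7.17% of all windows. Within 10 Mb the shares were 42.5%, 19.5% and 14.4%.

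Windows in runs had more CpG sites than other windows. Their mean was 10.9 (SD 7.82 over 182552 windows without an undetermined base), against 7.90 (SD 6.54) for listed windows outside runs and 4.24 (SD 5.22) for windows that were not listed. These SDs were larger than the differences between neighboring classes, so that single windows of the classes overlapped. GC content averaged 51.9% in runs, 46.3% in other listed windows and 39.6% in windows not listed. The ratio of observed to expected CpG sites was 0.322, 0.293 and 0.212. Only 1.25% of windows in runs had 40 or more CpG sites and 4.90% had 0 to 2, a class that made up 42.1% of windows not listed.

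Membership rose and then fell with CpG number. Of windows with 0 CpG sites 0.195% were in runs, and of those with 6 to 10 sites 6.13%. The share was 18.0% at 16 to 20 sites and 18.1% at 21 to 30, and fell to 9.62% at 41 to 60 and to 5.30% above 60. Listing of any kind fell too, from 51.7% at 16 to 20 sites to 33.4% at 41 to 60 and 15.3% above 60. Of the listed windows in these 3 classes 34.9%, 28.8% and 34.6% were in runs, so that the fall was mainly one of listing. With GC content the share in runs was highest at 65% to 70% (29.4%) and was 6.77% at 75% to 80%. By length of the stretch, the mean number of CpG sites was 7.04 in single listed windows, 9.44 in stretches of 5 to 9, 10.4 in runs of 10 to 19, 11.4 in runs of 20 to 49, 11.8 in runs of 50 to 99 and 11.05 in runs of 100 or more. Over all determined windows 3.40% were in runs and 17.6% were listed.

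Single runs spread around this picture. The mean number of CpG sites per window was between 5.71 and 16.9 in the middle 80% of runs, with a median of 9.67. It was over 20 in 410 runs and below 5 in 503 runs. The runs with the highest means after that of FOXD3 lay at the starts of TRIM71 (39.8), KISS1R (37.9) and EMX1 (37.4), named after their values were seen. TRIM71 binds RNA in early development, KISS1R is the kisspeptin receptor and EMX1 is a homeobox factor of the forebrain. At the low end, 35 runs had a mean below 3, and 14 of these lay within 5 Mb of an undetermined block of 1 Mb or more, such as those at centromeres, against 584 of all 9903 runs (5.90%). Protein-coding genes were overlapped by 11 of the 35.

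The windows at which runs ended were more often at the extremes of CpG number than the windows in runs. The absent windows directly at a run end numbered 18474. Among those without an undetermined base the mean was 10.9 CpG sites and the median 6, so that the mean was that of windows in runs and the median was lower than the 9 found there. Of these windows 18.4% had 0 to 2 CpG sites, against 4.90% of windows in runs and 42.1% of all absent windows. The share with 40 or more was 6.37%, against 1.25% and 0.415%. The windows at run ends were thus less often CpG-poor than absent windows in general, and more often CpG-dense. Gene starts lay in 544 of the windows at run ends (2.95%), against 0.607% of windows in runs and 0.295% of all absent windows. A single absent window parted neighboring runs in 1332 cases. These windows had a mean of 13.05 CpG sites, 9.53% had 40 or more and 5.41% held a start. Since a run end is by definition an absent window, these values describe the interruptions and were not tested.

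CELSR1, RXRA and NOTCH1 had absent windows at their starts. The CELSR1 run ended 1017 bp short of the CELSR1 start, whose window was absent and had 58 CpG sites. The window with the RXRA start had 101 CpG sites and was absent, and the longest RXRA run began 1200 bp behind it. NOTCH1, a receptor gene often mutated in squamous carcinomas, had 101 of 103 windows in runs, while the window with its start (77 CpG sites) was absent. The windows with the starts of ITPK1 (79), CERK (72), TBCD (68), BAIAP2 (61) and TTLL12 (60) were also absent. Other CpG-dense starts of genes in these runs were themselves in runs, among them those of MCAT (70), BIK (57), TTLL1 (53), TSPO (46), WNT7B (45) and AATK (42), besides the 10 starts at 11q13.

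**Figure D2:**
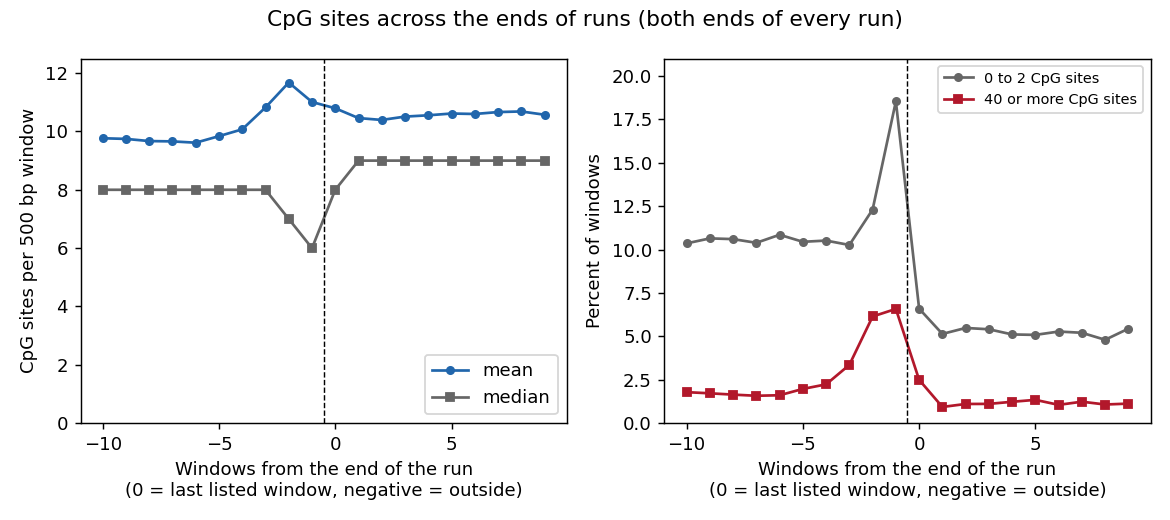
CpG sites by distance from the end of a run in windows of 500 bp, over all ends of the 9903 runs. Position 0 is the last listed window and negative positions are outside the run. Left: mean (circles) and median (squares) CpG sites per window. Right: percent of windows with 0 to 2 (circles) and with 40 or more (squares) CpG sites. In the first absent window the median drops while both the CpG-poor and the CpG-dense class rise.

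Most windows in runs lay in genes. Of windows in runs 66.4% had their midpoint in a protein-coding gene, against 56.8% of listed windows outside runs and 43.9% of windows not listed. Exons held 11.2%, 6.19% and 3.20% of the 3 classes and introns 55.2%, 50.6% and 40.7%. Promoters held 4.81%, 4.50% and 1.48%. A protein-coding gene was overlapped by 7276 runs (73.5%), and 5183 runs (52.3%) lay wholly inside 1 gene. The start of a canonical transcript lay in 994 runs (10.0%). Of 19229 protein-coding genes, 4680 (24.3%) were overlapped by a run and 309 (1.61%) lay wholly inside 1 run. By length, 25.5% of genes of 20 kb or more and 22.7% of shorter genes were overlapped.

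The genes with most run windows were large. After SHANK2 came GSE1 with 896 of 1014 windows in runs, TBC1D22A with 769 of 826, FOXN3 with 694 of 989 and RPTOR with 503 of 843. FOXN3 is a forkhead repressor, and RPTOR is the raptor subunit of the growth kinase complex mTORC1. CMIP had 501 of 534 windows in runs, TTC7B 471 of 584 and ADAMTS17 448 of 741. VAV2, a guanine nucleotide exchange factor, had 422 of 461. PCSK6, a proprotein convertase, had 406 of 471, EHMT1, a methyltransferase of histone H3, 369 of 502 and SEPTIN9, a cytoskeletal GTPase, 358 of 440. In GSE1, CMIP and VAV2 the window with the canonical start was absent, with 49, 86 and 70 CpG sites.

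Among genes of 20 kb or more, several were covered from end to end outside 11q13. SLC16A3, which exports lactate, had 86 of 86 windows in runs, with 76 CpG sites in the window with its start. ASB2, a subunit of a ubiquitin ligase, had 85 of 85 with 9 CpG sites at its start. FRMD8 had 54 of 54, BAIAP2L2 53 of 53, TTC38 52 of 52 and MLC1 52 of 52. The promoter of MLC1 had 4 of 6 windows in runs and those of the other 5 genes 6 of 6.

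Many promoters had a listed window and fewer had a window in a run. Of 18978 promoters, 14533 (76.6%) had a listed window and 1913 (10.1%) had a window in a run. The window with the start itself was listed in 5200 cases (27.4%) and in a run in 1135 (5.98%). Over all determined windows 17.6% were listed and 3.40% were in runs. Windows with a start had a median of 28 CpG sites where they were in runs, 26 where they were listed outside runs and 40 where they were absent. Around starts, 8.03% of windows 10 kb upstream were in runs, 8.90% at 5 kb upstream, 7.49% in the window before the start and 5.98% in the window with the start. The share rose to 11.6% at 5 kb into the gene and was 10.4% at 10 kb. Listing of any kind had another shape, with 47.3% at 1 kb upstream, 27.4% at the start and 44.4% at 1 kb into the gene. Runs thus showed the dip at the start without the shoulders on its sides, and stood higher inside genes than before them.

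Gene lists were set beside the 24.3% of all protein-coding genes overlapped by a run and the 10.1% of all promoters with a run window. The counts describe the lists and were not tested. In the cholesterol list, the pathway the study followed, 12 of 33 genes (36.4%) were overlapped. They included SREBF2 (66 of 149 windows in runs) and SREBF1 (35 of 54), the sterol-regulated transcription factors, LSS (23 of 81) and MVD (17 of 22). Promoters with a run window numbered 4 of 33 (12.1%).

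Of the cholesterol genes that the study named and TET1 itself, only SQLE had windows in runs. INSIG1, which holds the SREBP complex in the endoplasmic reticulum, had 12 of 25 windows listed and 0 in runs, and its promoter 4 of 6 listed. FDPS (farnesyl diphosphate synthase) had 13 of 24 windows listed and APOC1 (an apolipoprotein) 2 of 10, with 0 in runs. SQLE, the squalene epoxidase, had 22 of 48 listed and 3 in runs. TET1 had 78 of 268 windows listed and 0 in runs. WDR5, a subunit of histone H3 methyltransferase complexes, had 46 of 49 windows in runs and 5 of 6 promoter windows in runs, while the window with its start (73 CpG sites) was absent.

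Of the hypoxia-induced genes of glycolysis and angiogenesis 15 of 29 (51.7%) were overlapped. SLC2A1, the glucose transporter GLUT1, had 63 of 67 windows in runs, PFKL 53 of 55, NDRG1 119 of 130, PFKP 59 of 143, PKM 31 of 65 and HK1 33 of 264. Promoters with a run window numbered 5 of 29 (17.2%). Of the HIF subunits and oxygen sensors 4 of 12 (33.3%) were overlapped, namely the coactivators CREBBP (77 of 311) and EP300 (53 of 175), ARNT2 (21 of 388) and the prolyl hydroxylase EGLN2 (18 of 19). No promoter of this list had a run window, and 10 of the 12 had a listed one. HIF1A had 40 of 106 windows listed and EPAS1, which encodes HIF-2alpha, 75 of 186, with 0 in runs.

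In the list of TET and DNMT enzymes and their partners 7 of 11 (63.6%) were overlapped. IDH2, a mitochondrial isocitrate dehydrogenase, had 38 of 38 windows in runs, UHRF1, which reads hemimethylated DNA, 77 of 118, DNMT3L 26 of 32, TET3 26 of 247, DNMT3B 24 of 94 and DNMT1 21 of 196. Of the genes of epithelial-mesenchymal transition 14 of 28 (50%) were overlapped. CDH1 (E-cadherin) had 116 of 197 windows in runs, JUP (plakoglobin) 57 of 64, TGFB1 35 of 105, TJP1 23 of 539 and TWIST2 19 of 151. WDR5 is also on this list.

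The squamous lineage and driver genes had 18 of 30 (60%) overlapped and 11 of 30 promoters (36.7%) with a run window. The list holds ANO1, CTTN, LTO1, CCND1, FADD, FGF3, FGF4 and FGF19 of 11q13, which lie in the same few runs and are not separate cases. Outside 11q13 EGFR had 207 of 386 windows in runs, GRHL2 134 of 355 and NSD1 52 of 336. Of the keratins 14 of 55 (25.5%) were overlapped, with KRT15 (18 of 18) and KRT16 (12 of 12) wholly inside a run, KRT80 at 35 of 46, KRT7 at 29 of 39, KRT86 at 22 of 120 and KRT8 at 11 of 105.

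Developmental transcription factors were close to the 24.3% of all genes for gene bodies, with 22 of 82 (26.8%), and had promoters with a run window in 19 of 82 (23.2%, against 10.1% of all promoters). LHX3 had 17 of 18 windows in runs, GATA2 16 of 27, LHX1 12 of 16, ZIC1 12 of 234 and PAX5 11 of 402. Among the HOX genes 3 of 39 (7.69%) were overlapped, HOXA3 (11 of 92), HOXA6 (8 of 10) and HOXC12 (6 of 8), although 34 of 39 promoters had a listed window. Cytosolic ribosomal protein genes, which are short, had 35 of 76 (46.1%) overlapped and 6 of 76 promoters (7.89%) with a run window. RPS9 had 32 of 97 windows in runs, RPL28 30 of 34, RPS19 19 of 25, RPL3L 15 of 27, RPS10 15 of 18 and RPL38 13 of 15.

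Several families and groups were overlapped below the 24.3% of all genes. None of 53 clustered protocadherins and none of 413 olfactory receptor genes was overlapped by a run (0 of 53 and 0 of 413). Genes of both families lie in clusters, so that the members are not separate cases. A listed window was present in 19 of the protocadherin promoters (37.3%) and 54 of the olfactory receptor promoters (13.4%). These shares were taken over the members with a canonical start, and the share over all promoters was 76.6%. Zinc finger genes had 49 of 496 (9.88%) overlapped, led by ZNF710 (151 of 162), ZNF787 (44 of 68), ZNF410 (37 of 91) and ZNF774 (27 of 34). Imprinted genes had 4 of 26 (15.4%), KCNQ1 (118 of 809), SLC22A18 (47 of 51), TRAPPC9 (20 of 1457) and NNAT (5 of 5). The large genes of common fragile sites had 3 of 18 (16.7%), PTPRN2 (127 of 2098), WWOX (13 of 2226) and CSMD3 (8 of 2428). Only reads with 1 place in the genome were kept by the authors, and the part of mapping in these low counts was not tested.

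Runs without a protein-coding gene numbered 2627. The longest of them (chr8:128947001-129010500) had 127 windows and lay in PVT1, a long non-coding RNA gene beside MYC, as did runs of 118 (chr8:128886501-128945500) and 75 windows (chr8:128848501-128886000). A run of 123 windows (chr9:139476001-139537500) overlapped LINC01451, and runs of 121 (chr11:68931501-68992000) and 71 windows (chr11:68992501-69028000) lay on the CCND1 side of TPCN2 with no named gene. A run of 114 windows (chr21:10772501-10829500) lay near the centromere of chromosome 21. These runs were named for their length after it was seen.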

How the data were processed

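The 4 libraries were sequenced as 50 bp single-end reads and mapped by the authors to hg19 with Bowtie 0.12.7, and unique and monoclonal reads were kept. The deposited table, made with MEDIPS, gives the start and end position of each listed 500 bp window. Its 4 columns of values carry names that match no sample label and were not used, so that no condition was compared and no test was made. The positions were laid on GRCh37, whose autosomes have the lengths of hg19, and CpG sites and GC content were counted in all windows without an undetermined base. Genes were those of GENCODE version 44 lifted to GRCh37, and a window belonged to a gene or promoter by its midpoint, while a gene was overlapped by a run if they shared any base. The canonical transcript gave the start, and 251 genes had none. Genes were named if they were overlapped by the 15 longest runs, had the most (15) or the largest share (10, among genes of 20 kb or more) of run windows, had 1 of the 10 promoters in the longest runs, were among the first 6 overlapped members of a list or were INSIG1, FDPS, APOC1, SQLE, TET1 or WDR5, and a few of these genes are not reported here. The members and lists were chosen with earlier results of these data known. The run finder was tested on simulated data and recovered every planted run. Python 3 with NumPy was used.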

Additional observations from a re-analysis of the deposited data

How the results depend on the processing

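Requiring 5, 15 or 20 windows gave 39147, 4334 or 2329 runs with 364604, 118411 or 84977 windows, 9863, 2662 or 1704 genes overlapped and 4798, 1084 or 708 promoters with a run window. Allowing 1 absent window within a run gave 307816 windows in runs and 3567 promoters. The longest run was 280 windows without chromosome 11. The number of CpG sites per window was 9 as a median, and the share of run windows in genes of any type was 74.7%. The other values stayed within 1.5 times the reported count, or within the SD between chromosomes (1.81 CpG sites and 7.52 percentage points). They include leaving out each chromosome in turn, windows with undetermined bases left out, stricter overlap with genes and other promoter limits. Joining runs across undetermined sequence, an alternative chosen after seeing the data, gave a longest run of 3075 windows. No paired analysis was possible because no column of values could be tied to a library. Depth per library was not analysed here, so that an absent window is not evidence of absent reads.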

Other observations

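Genes of other types were counted in the same way as the protein-coding genes, of which 24.3% were overlapped by a run, and the differences were not tested. Overlap by any shared base depends on gene length, for which the types were not matched. Over all determined windows 3.40% were in runs, and the shares of shorter gene types are better read beside this value. Long non-coding RNA genes had 2129 of 18229 (11.7%) overlapped, microRNA genes 222 of 2841 (7.81%), small nucleolar RNA genes 89 of 1392 (6.39%) and processed pseudogenes 207 of 9246 (2.24%). Outside the autosomes, the same rule gave 24 runs with 329 of the 12055 listed windows of chromosome X (2.73%), the longest of 43 windows (chrX:153575501-153597000). Chromosome Y had 4 runs with 70 of its 224 listed windows (31.25%), the longest of 30 windows. The mitochondrial genome had 34 listed windows in 1 run.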
